A study of Bos taurus with 36 samples.

Results

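The genes described here encode the machinery that carries a newly made secretory protein into the endoplasmic reticulum (ER) and onward in coated vesicles. They were all genes whose single symbol in the array annotation begins with SEC1, SEC2, SEC3, SEC6, SSR1 to SSR4, SRP and a digit, SPCS, PDIA, COPA, COPB, COPE, COPG, COPZ or TMED. This rule took genes by name and not by a measured value, but it was chosen with earlier results of these data known. The rule gave 53 of the 9155 genes with a single symbol. Each gene was read from the probe set with the highest mean log2 signal over the 36 arrays, and 22 of the 53 genes had several probe sets. By role they were 5 genes of the signal recognition particle, 6 of the SEC61 channel and its partners, 4 of the translocon-associated protein complex, 5 of signal peptidase, 3 protein disulphide isomerases, 8 of the COPII coat and its partners, 3 of the SEC22 family, 8 of the COPI coat, 9 p24 cargo receptors and 2 SEC14-like genes. The SEC14-like genes encode lipid binding proteins and share only the start of their symbol with the rest. COPG2 and SEC24B had a mean log2 signal under 5, near the background of the array, and no gene was left out.

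Each of 6 multiparous Holstein cows provided both treatments. Its left glands were milked 2 times a day (2×) throughout, and its right glands 4 times a day (4×) on lactation days 1 to 21 and 2× afterwards. This design is called unilateral frequent milking. Biopsies of lactating mammary tissue were taken on day 21 and day 40 from rear glands and on day 23 from fore glands, 1 from each side, so that 6 groups of 6 arrays were available and each cow served as its own control. The glands called 4× on days 23 and 40 were therefore formerly 4× glands, milked 2× at that time. Since every cow had its right side milked 4×, milking frequency and side cannot be told apart, and day 23 and gland position cannot be told apart either. Differential expression was taken within each cow and day, as the log2 signal on the 4× side minus the log2 signal on the 2× side, and tested with limma over 24016 probe sets. A probe set was counted as higher or lower at an unadjusted p under 0.05, and the p-values adjusted by the method of Benjamini and Hochberg are given beside it. In bulk tissue, fewer cells of a type and less RNA per cell cannot be told apart.

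Milk proteins are secretory proteins. The signal recognition particle binds the signal sequence as it leaves the ribosome, the SEC61 channel passes the chain through the ER membrane, signal peptidase removes the signal sequence and disulphide isomerases help the chain to fold. Vesicles with a COPII coat then leave the ER, vesicles with a COPI coat return escaped components from the Golgi, and p24 proteins act as cargo receptors in both. The secretory epithelium of the lactating mammary gland is rich in rough ER.

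The 2× gland of cow 1 on day 21 stood apart from the other glands. Its mean log2 signal over the 53 genes was 8.76, and the other 2× glands on that day lay between 8.94 and 9.23. The 4× gland of cow 1 on the same day had 9.18, and its 2× glands on days 23 and 40 had 9.13 and 9.08. Cow 1 held the lowest value of the 6 cows on day 21 in the 2× gland for 33 of the 53 genes. The medians of the 36 arrays over all probe sets lay between 6.04 and 6.15. The 6 milk protein markers of the secretory epithelium (CSN1S1, CSN1S2, CSN2, CSN3, LALBA and PAEP) had mean log2 signals from 14.04 to 14.35 over the 36 glands, and the lowest of these was also the 2× gland of cow 1 on day 21.

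**Figure D1:**
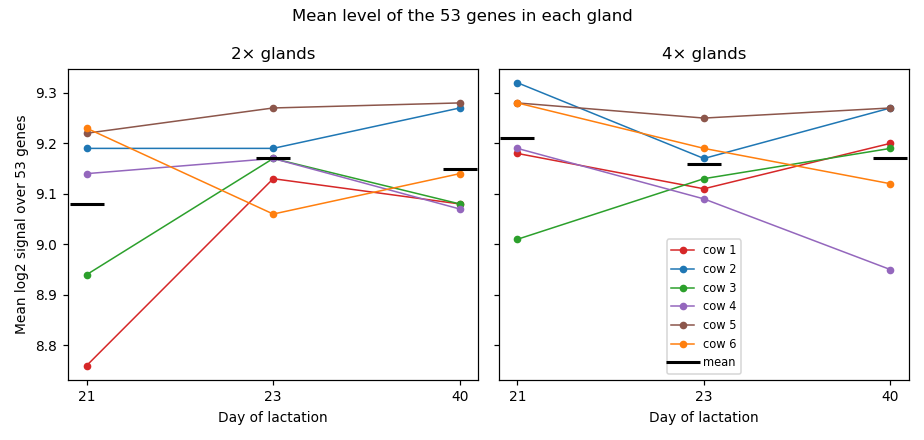
Mean log2 signal over the 53 genes (y axis) in the 2× glands (left) and 4× glands (right) on lactation days 21, 23 and 40 (x axis), 1 line per cow, and the mean of the 6 cows as a black bar. The 2× gland of cow 1 lies at 8.76 on day 21 and at 9.13 on day 23.

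On day 21, while the 4× side was still milked 4×, most of the ER and coat genes had higher values in the 4× gland. The log2 signal averaged over the 53 genes in a gland had a median of 9.16 in the 2× glands and 9.24 in the 4× glands, with ranges of 8.76 to 9.23 and 9.01 to 9.32 that overlapped. Differential expression was positive for 45 of the 53 genes, with a median of 0.13 over the genes, and the median over all 24016 probe sets was 0.02. Of the 53 genes 18 were higher, and of all probe sets 8.02% were. SEC11A was the 1 gene that was lower, with 7.91% of all probe sets. These shares of all probe sets also apply to the day 21 counts by role below. None of the 53 genes passed an adjusted p of 0.05 in limma, the smallest adjusted p being 0.180, and none did in any alternative fit. The mean over the 53 genes was 0.42 in cow 1, 0.13 in cow 2 and 0.06 for each of the remaining cows. Of the 19 genes, SEC11C, SEC22B, SEC61A1, SEC62, SPCS1, SPCS2, SSR3 and TMED10 had the same direction in 6 of 6 cows, and 16 had it in at least 5. Cow 1 had the largest differential expression of the 6 cows for 35 genes. Without cow 1 the count was 2 higher and 0 lower, against 3.19% and 3.35% of all probe sets, and the 2 genes were SEC16B and TMED9. The median over the genes was then 0.08, and 44 were positive. With no replicate block for the cow 7 were higher and 1 was lower, against 3.66% and 4.08% of all probe sets. Each SE of a differential expression used 1 spread for all days. The mean over the 53 genes varied more between cows on day 21 (SD 0.14) than on days 23 and 40 (0.07 and 0.09). The SE can therefore understate the spread on day 21. With each day fitted alone 5 of the 53 genes were higher and 0 lower, against 5.32% and 5.00% of all probe sets. Among the 32 further probe sets of these genes, which were not used for the counts, 9 were higher and 0 lower. With the mean of all probe sets of each gene 18 of the 19 calls remained, PDIA5 was lost, and COPZ1, PDIA4, SRP72 and TMED7 were called in addition.

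**Figure D2:**
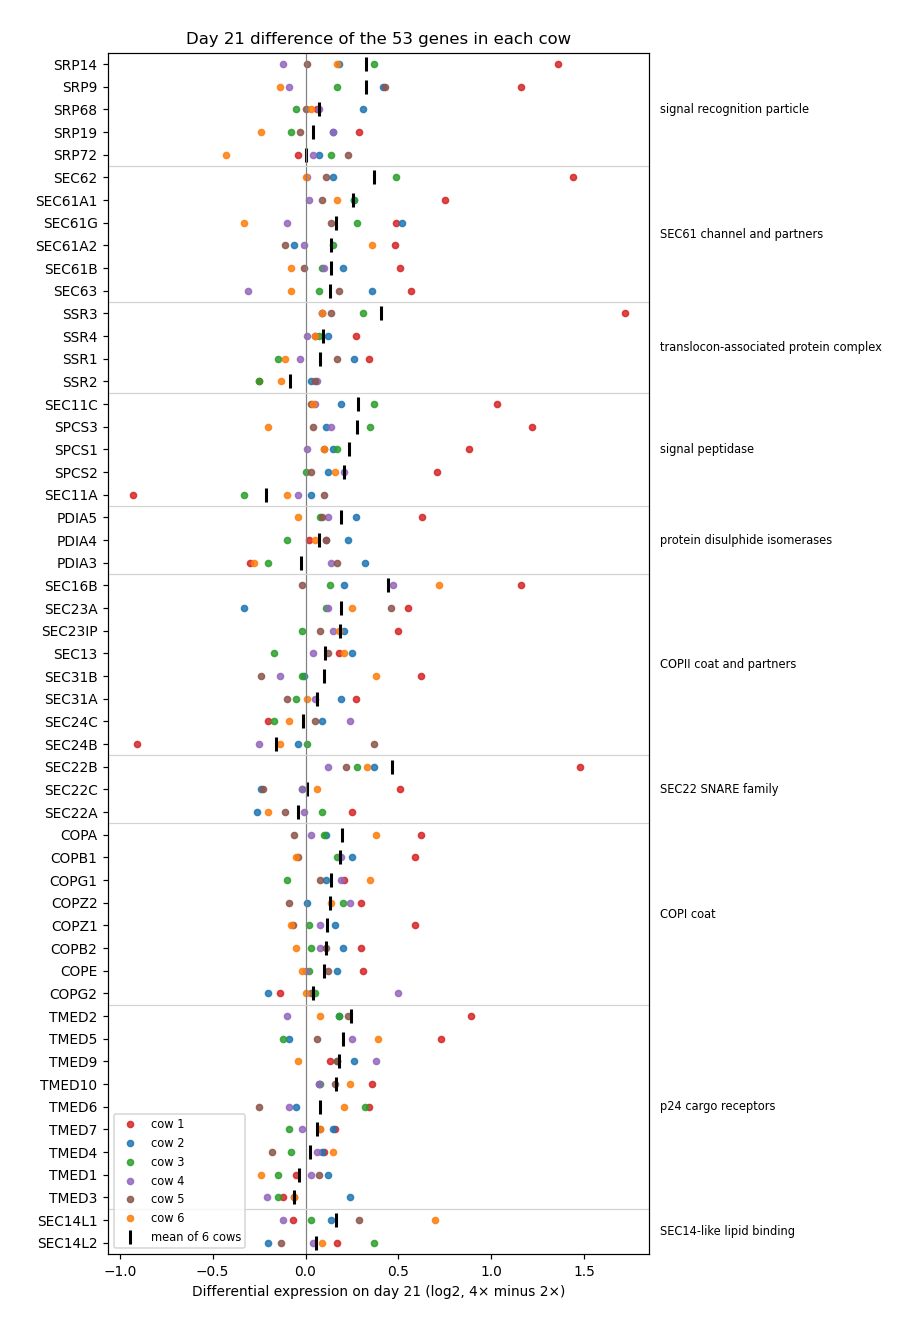
Differential expression on day 21 (x axis, log2, 4× minus 2×) of each of the 53 genes (y axis, grouped by role), 1 point per cow, and the mean of the 6 cows as a black bar. Cow 1 lies farthest to the right for 35 of the genes, and at 1.72 for SSR3.

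In the signal recognition particle the genes of its pair of small proteins, SRP14 and SRP9, were called higher on day 21. SRP14, which with SRP9 forms the end of the particle that slows translation, had log2 signals of 9.20, 10.48 and 10.86 (lowest, median and highest of the cows) in the 2× glands on day 21 and of 10.36, 10.58 and 10.87 in the 4× glands. SRP9 had 8.12, 9.04 and 9.24 in the 2× glands and 8.64, 9.14 and 9.67 in the 4× glands. In both genes cow 1 was the lowest 2× gland and the groups overlapped. Differential expression was 0.33 (SE 0.13) for SRP14 (adjusted p = 0.239 from limma) and 0.33 (SE 0.15) for SRP9 (adjusted p = 0.282), positive in 5 and 4 of 6 cows. It was 0.12 for SRP14 and 0.16 for SRP9 without cow 1's day 21 pair. SRP19, SRP68 and SRP72, which bind the RNA of the particle, had 0.04, 0.07 and 0.00 and were not called. A further probe set of SRP72, with a lower mean signal (7.71), had 0.38 (SE 0.12), and the mean of its probe sets was called. The median of SRP14, the gene of this group with the highest mean signal, was 10.57 and 10.51 in the 2× and 4× glands on day 23 and 10.46 and 10.51 on day 40.

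All 6 genes of the SEC61 channel and its partners had a positive differential expression on day 21, and 2 were higher. SEC61A1, the pore forming subunit, had log2 signals of 9.97, 10.93 and 11.06 in the 2× glands and 10.72, 11.02 and 11.23 in the 4× glands. SEC62, a membrane protein that serves the passage of short chains, had 9.69, 11.01 and 11.28 in the 2× glands and 10.81, 11.13 and 11.40 in the 4× glands. The ranges overlapped, and the lowest 2× gland was that of cow 1 for both genes. Differential expression was 0.26 (SE 0.09) for SEC61A1 (adjusted p = 0.184 from limma) and 0.37 (SE 0.14) for SEC62 (adjusted p = 0.207), each positive in 6 of 6 cows. Over the cows it ran from 0.02 to 0.75 for SEC61A1 and from 0.00 to 1.44 for SEC62. The other 4 genes, SEC61A2, SEC61B, SEC61G and SEC63, lay between 0.13 and 0.17 and were not called. Without cow 1's day 21 pair SEC61A1 had 0.16 (SE 0.08) and SEC62 0.15 (SE 0.10), and neither was called. SEC61B, a small subunit of the channel with the highest mean signal of this group, had medians of 10.98 and 11.13 in the 2× and 4× glands on day 21, 11.11 and 11.06 on day 23 and 11.03 and 11.13 on day 40.

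In the translocon-associated protein complex, which sits beside the channel, 1 of 4 subunits was higher. SSR3, the gamma subunit, had log2 signals of 9.43, 11.12 and 11.38 in the 2× glands and 10.95, 11.21 and 11.49 in the 4× glands on day 21. Cow 1 was the lowest 2× gland and lay more than 1 log2 unit under the next, cow 3, which was also the lowest 4× gland. Differential expression was 0.41 (SE 0.15, adjusted p = 0.205 from limma), positive in 6 of 6 cows, with 1.72 in cow 1 and 0.09 to 0.31 in the others, and it was 0.15 without cow 1's day 21 pair. SSR3 was not called with day 21 fitted alone. A further probe set of SSR3 had 0.52 (SE 0.17). SSR1, SSR2 and SSR4 had 0.08, −0.08 and 0.10 and were not called. SSR4, the gene with the highest mean signal of this complex, had medians of 13.01 and 13.07 in the 2× and 4× glands on day 21, 13.06 and 13.10 on day 23 and 13.06 and 13.06 on day 40.

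**Figure D3:**
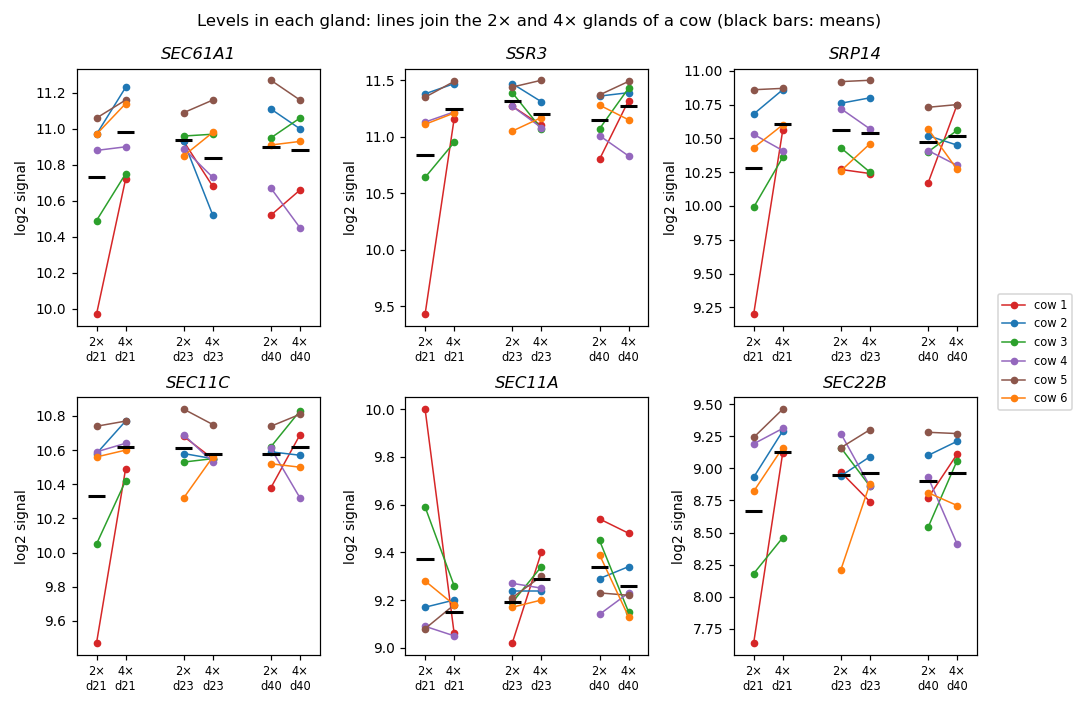
Log2 signal (y axis, a scale of its own for each gene) of SEC61A1, SSR3, SRP14, SEC11C, SEC11A and SEC22B in the 2× and 4× glands on days 21, 23 and 40 (x axis), with a line joining the glands of each cow and a black bar for the mean of the 6 cows. On day 21 the 2× gland of cow 1 is the lowest of all for SSR3, at 9.43, and the highest of all for SEC11A, at 10.0.

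Of the 5 genes of signal peptidase 4 were higher and 1 was lower on day 21, against 8.02% and 7.91% of all probe sets. SPCS1, SPCS2 and SPCS3 are its accessory and core subunits and SEC11A and SEC11C are its alternative catalytic subunits. SEC11C had log2 signals of 9.47, 10.57 and 10.74 in the 2× glands and 10.42, 10.62 and 10.77 in the 4× glands on day 21. SEC11A had 9.08, 9.22 and 10.0 in the 2× glands and 9.05, 9.18 and 9.26 in the 4× glands. The 2× gland of cow 1 was the lowest for SEC11C and the highest for SEC11A. Differential expression was 0.28 (SE 0.10, adjusted p = 0.200 from limma) for SEC11C, positive in 6 of 6 cows, and −0.21 (SE 0.10, adjusted p = 0.304) for SEC11A, negative in 4. SEC11A was not called without cow 1, without cow 3 or without cow 6. SPCS1, SPCS2 and SPCS3 had 0.24 (SE 0.09), 0.20 (SE 0.08) and 0.28 (SE 0.13). They were positive in 6, 6 and 5 cows. Without cow 1's day 21 pair SEC11C, SPCS1 and SPCS2 had 0.14, 0.11 and 0.10 and none of the 5 genes was called. SPCS1, with the highest mean signal of this group, had medians of 11.51 and 11.60 in the 2× and 4× glands on day 21, 11.59 and 11.53 on day 23 and 11.51 and 11.59 on day 40.

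Of the 3 protein disulphide isomerases, which form and rearrange disulphide bonds, PDIA5 was higher on day 21. Its log2 signals were 6.85, 7.33 and 7.55 in the 2× glands and 7.25, 7.50 and 7.68 in the 4× glands, with overlap, and differential expression was 0.19 (SE 0.08, adjusted p = 0.240 from limma). PDIA3 and PDIA4 had −0.02 and 0.07, and neither was called. The further probe sets of PDIA4, with lower mean signals (7.60 and 5.79), had 0.51 (SE 0.13) and 0.02 (SE 0.10), so that those of this gene disagreed. PDIA3, the isomerase of glycoproteins, had the highest mean signal of these genes, with medians of 10.83 and 10.98 in the 2× and 4× glands on day 21, 10.92 and 10.84 on day 23 and 10.90 and 10.75 on day 40. For PDIA5 the further probe sets had 0.21 and −0.06 on day 21, and the mean of all its probe sets was not called (0.11, SE 0.08).

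Among the 8 genes of the COPII coat and its partners, SEC16B and SEC23IP were higher on day 21. SEC16B, which organises ER exit sites, had log2 signals of 6.17, 7.50 and 8.0 in the 2× glands and 7.14, 7.72 and 8.43 in the 4× glands. The cows differed widely: cow 1 was lowest among the 2× glands, cow 3 among the 4× glands, and the groups overlapped. Differential expression was 0.45 (SE 0.12, adjusted p = 0.180 from limma), positive in 5 of 6 cows. Cow 1 had 1.16, cow 6 had 0.72, cow 4 had 0.47 and cow 5 had −0.02. Without cow 1's day 21 pair the value was 0.30 (SE 0.10) and SEC16B was still called. With no replicate block for the cow it was not. SEC23IP, a partner of the inner coat protein SEC23, had 0.18 (SE 0.08) and was positive in 5 cows. The inner coat genes SEC23A, SEC24B and SEC24C had 0.19, −0.16 and −0.01, and the outer cage genes SEC13, SEC31A and SEC31B had 0.10, 0.06 and 0.10. None of these 6 was called. For SEC23A a further probe set had −0.19 (SE 0.14). SEC31A had the highest mean signal of this group, with medians of 10.19 and 10.26 in the 2× and 4× glands on day 21, 10.09 and 10.14 on day 23 and 10.19 and 9.98 on day 40.

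SEC22 proteins are SNAREs or related proteins of membranes between ER and Golgi. SEC22B, the SNARE that fuses vesicles in both directions, had log2 signals of 7.64, 8.87 and 9.24 in the 2× glands and 8.46, 9.22 and 9.46 in the 4× glands on day 21. Cow 1 was again the lowest 2× gland, cow 3 the next, and the groups overlapped. Differential expression was 0.47 (SE 0.15, adjusted p = 0.184 from limma), the largest of the 53 genes with cow 1 included, and positive in 6 of 6 cows, with 1.48 in cow 1 and 0.12 to 0.37 in the others. A further probe set had 0.62 (SE 0.15). The value for SEC22B without cow 1's day 21 pair was 0.26 (SE 0.13), which was not called and was less than that of SEC16B. SEC22A and SEC22C had −0.04 and 0.01. The medians of SEC22B in the 2× and 4× glands were 9.07 and 8.87 on day 23 and 8.87 and 9.09 on day 40.

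All 8 COPI coat genes had a positive differential expression on day 21, from 0.04 to 0.19, and COPA and COPB1 were higher. COPA, the alpha subunit of the coat, had log2 signals of 10.26, 10.81 and 10.97 in the 2× glands and 10.81, 10.94 and 11.02 in the 4× glands. COPB1, the beta subunit, had 9.35, 9.76 and 10.05 and then 9.77, 9.96 and 10.08. The groups overlapped in both. COPA had 0.19 (SE 0.08, adjusted p = 0.227 from limma), positive in 5 of 6 cows, and COPB1 0.19 (SE 0.08, adjusted p = 0.287), positive in 4. They had 0.11 and 0.10 without cow 1's day 21 pair. COPZ1, a zeta subunit, had 0.12 (SE 0.08) and was not called, but a further probe set with a lower mean signal (8.18) had 0.42 (SE 0.15), and the mean of its probe sets was called (0.22, SE 0.08). The medians of COPA in the 2× and 4× glands were 10.93 and 10.99 on day 23 and 10.87 and 10.88 on day 40.

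Of the 9 p24 cargo receptors TMED2, TMED9 and TMED10 were higher on day 21 and none was lower. TMED9 had log2 signals of 10.49, 10.61 and 11.11 in the 2× glands and 10.67, 10.82 and 11.08 in the 4× glands. Cow 1 was not at either end of these ranges, and its own differential expression of 0.13 was the second lowest of the 6 cows, after −0.04 in cow 6. The mean was 0.18 (SE 0.06, adjusted p = 0.184 from limma), and without cow 1's day 21 pair it was 0.19 (SE 0.07), still called. It was not called without cow 4, with no replicate block for the cow (0.18, SE 0.12) or with cow as a random block. TMED2 had 10.95, 11.73 and 11.78 in the 2× glands and 11.67, 11.84 and 11.94 in the 4× glands, with cow 1 the lowest 2× gland. Its differential expression was 0.25 (SE 0.09, adjusted p = 0.205), positive in 5 cows, and 0.12 without that pair. TMED10 had 11.19, 11.33 and 11.46 and then 11.38, 11.52 and 11.56, a differential expression of 0.16 (SE 0.08, adjusted p = 0.296), positive in 6 of 6 cows. The ranges of these 3 genes overlapped. A further probe set of TMED10 (mean signal 10.27) had 0.32 (SE 0.10). TMED7 had 0.06 (SE 0.07) and was not called, but a further probe set (mean signal 9.58) had 0.39 (SE 0.11), and the mean of both was called (0.23, SE 0.09). TMED2 had the highest mean signal of the group, with medians of 11.82 and 11.75 in the 2× and 4× glands on day 23 and 11.73 and 11.88 on day 40. The SEC14-like genes SEC14L1 and SEC14L2 had 0.16 and 0.06 on day 21 and were not called.

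Other genes of the same route that the naming rule does not take in were read from a list of 70, of which 57 were measured. On day 21, 19 of the 57 were higher and 1 was lower, against 8.02% and 7.91% of all probe sets, with a median of 0.14, and the mean over them was 0.43 in cow 1 and 0.02 to 0.14 in the other cows. Of 14 genes of translocation and N-glycosylation 6 were higher, of 13 of lumenal folding 4, of 14 of ER exit 4, and of 16 of COPI function and Golgi retrieval 5, where 1 was lower. SRPRA, the receptor that docks the signal recognition particle, had 0.44 (SE 0.13), ARFGAP3, which ends the cycle of the COPI coat, 0.34 (SE 0.11) and KDELR2, the receptor that returns ER residents, 0.26 (SE 0.08). ARF5, a small GTPase of the Golgi, had −0.30 (SE 0.10) and was the gene that was lower, while MIA3, which loads large cargo at ER exit sites, had −0.13 (SE 0.07) and TUSC3, a subunit of the oligosaccharyltransferase, −0.17 (SE 0.12). Without cow 1 the count was 5 higher and 1 lower, against 3.19% and 3.35% of all probe sets.

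Some markers of immune cells in the biopsy were lower in the 4× gland on day 21, when 7.91% of all probe sets were lower. Of 5 measured macrophage markers (7 listed) 3 were lower in the 4× gland, CSF1R, C1QB and C1QC, with a median over the markers of −0.32, and their mean log2 signal lay between 7.05 and 7.96 in the 2× glands and between 7.05 and 7.33 in the 4× glands. Their mean differential expression was −0.82 in cow 1, −0.62 in cow 3 and −0.20 to 0.15 in the other cows. Of 5 T cell markers 2 were lower (mean signal 7.0 to 7.50 in the 2× glands and 6.88 to 7.28 in the 4× glands). Of 6 measured markers of antibody secreting cells (9 listed), which also hold much ER, 2 were lower, JCHAIN and PRDM1, while CD38 and CD79A had 0.12 and 0.06 and were not called. The median over the 6 markers was −0.14, with mean signals of 6.16 to 6.68 in the 2× glands and 6.15 to 6.39 in the 4× glands. None of 5 fibroblast, 4 endothelial, 5 myoepithelial and 3 adipocyte markers was called. The 6 milk protein markers had a median of 0.07, and in cow 1 their mean was 0.29. They lie near the top of the scale, where differences may be compressed: CSN2 was the brightest probe set on 35 of 36 arrays and had the same value in both glands of 4 of 6 cows. The part of these cells in the values of the ER and coat genes was not tested.

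On day 23, after frequent milking had ended and in fore glands, the same genes were centred near 0. The log2 signal averaged over the 53 genes had a median of 9.17 in the 2× glands and 9.15 in the 4× glands. Differential expression was positive for 23 genes and negative for 30, with a median of −0.02. No gene was higher, against 1.39% of all probe sets, and 1 was lower, against 1.26%. This was SSR1, the alpha subunit of the translocon-associated protein complex. SSR1 had log2 signals of 11.66, 11.75 and 11.98 in the 2× glands and 11.38, 11.63 and 11.88 in the 4× glands, which overlapped. Its differential expression was −0.17 (SE 0.07, adjusted p = 1.00 from limma), negative in 5 of 6 cows, with −0.41 in cow 1 and −0.37 in cow 2. It was not called without cow 1, without cow 2 or without cow 5, and a further probe set of SSR1, also of high signal (11.21), had −0.06 (SE 0.07). The genes with the next smallest p were SEC24B (0.23, SE 0.12), SEC23A (0.15, SE 0.10) and SEC22A (0.11, SE 0.07), none of which was called. SEC24B ran from 3.69 to 4.62 in the 2× glands (median 4.05) and from 3.90 to 4.74 in the 4× glands (median 4.32), near the background. SEC23A had medians of 6.01 and 6.11 and SEC22A of 6.72 and 6.79. The mean over the 53 genes was 0.13 in cow 6 and −0.09 to −0.02 in the other 5 cows.

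**Figure D4:**
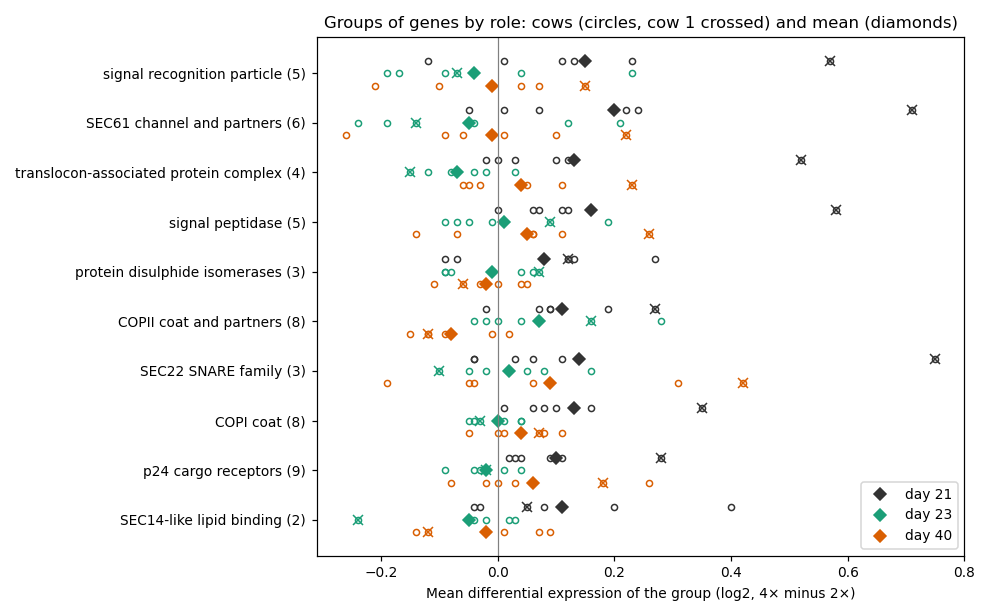
Mean differential expression (x axis, log2, 4× minus 2×) of each role group (y axis, with the number of genes) on days 21, 23 and 40, with an open circle for each of the 6 cows, a cross on cow 1 and a diamond for the mean of the cows. On day 21 the 10 means lie between 0.08 and 0.20, and cow 1 reaches 0.75 in the SEC22 family.

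The change in differential expression from day 21 to day 23 was negative for 47 of the 53 genes, with a median of −0.14 and a median over all probe sets of −0.02. Of the 53 genes 9 had a lower and 2 a higher value, against 5.15% and 5.65% of all probe sets. This fit treated the day 21 and day 23 values of a cow as independent. With the change taken within each cow, SEC61A1, SSR3 and SEC16B were lower and 0 genes higher. Of all probe sets 3.63% were then lower and 5.09% higher. SEC61A1 had a change of −0.36 (SE 0.12, adjusted p = 0.392 from limma), negative in 6 of 6 cows, the smallest p of the 53 genes. SSR3 had −0.52 (SE 0.22) and SSR1 −0.25 (SE 0.11), negative in 5 and 3 cows, and SRP9, SEC62, SEC22B, SEC16B, SEC11C and TMED2 lay between −0.46 and −0.28. The 2 higher values were those of SEC24B, 0.39 (SE 0.17), and SEC11A, 0.32 (SE 0.14). These values share the day 21 glands with the differential expression of that day. Without cow 1 just SEC61A1 (−0.23) and SSR3 (−0.25) were called, so that 2 genes were lower and 0 higher. Of all probe sets 2.27% were lower and 2.70% higher without cow 1. The count of lower genes was 4, 3, 6 and 5 without cows 2, 3, 4 and 5 and 16 without cow 6. The shares of all probe sets lower were 6.00%, 3.38%, 5.36%, 6.28% and 4.72% in the same order. With no replicate block for the cow the count of lower genes was 0, with 1 higher, against 1.97% and 2.54%.

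On day 40, when the sides had long been milked equally, the ER and coat genes did not share a direction. Differential expression was positive for 29 and negative for 24, with a median of 0.03. TMED5, COPZ2 and SEC14L2 were higher, 3 of 53, against 11.6% of all probe sets, and SEC31A and SEC14L1 were lower, against 8.86%. TMED5, a p24 cargo receptor, had log2 signals of 6.36, 6.72 and 6.93 in the 2× glands and 6.85, 6.97 and 7.30 in the 4× glands. The overlap was small, and the 4× gland was the higher in 6 of 6 cows, by 0.05 to 0.80. Differential expression was 0.35 (SE 0.11, adjusted p = 0.171 from limma), and TMED5 was called with each of the 6 cows left out in turn. A further probe set of TMED5 near the background (4.71) had 0.05 (SE 0.23), and the mean of both was not called (0.20, SE 0.14).

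SEC31A, which forms the outer cage of the COPII coat, had the lower value on the 4× side in 6 of 6 cows on day 40. Its log2 signals were 10.0, 10.19 and 10.25 in the 2× glands and 9.84, 9.98 and 10.24 in the 4× glands, and the highest gland on both sides was that of cow 2. Differential expression was −0.16 (SE 0.07, adjusted p = 0.220 from limma), and −0.11 without cow 1. COPZ2, an isoform of the zeta subunit of the COPI coat, had 7.64, 7.76 and 7.85 in the 2× glands and 7.68, 7.95 and 8.12 in the 4× glands. Its differential expression was 0.17 (SE 0.07, adjusted p = 0.206), positive in 5 cows, and a further probe set had 0.02 (SE 0.10). The SEC14-like genes were called in opposite directions: SEC14L1 had 8.61, 8.79 and 9.03 in the 2× glands and 8.07, 8.58 and 9.09 in the 4× glands, a differential expression of −0.24 (SE 0.10), while SEC14L2 had 0.20 (SE 0.09). SEC14L2 had a low mean signal (5.59), and a further probe set of similar signal (5.49) had 0.13 (SE 0.09). SEC14L2 was not called without cow 1, 3, 4, 5 or 6, and SEC14L1 was not called without cow 1, 4 or 5. SEC31A and COPZ2 were not called without cow 1, 3 or 4. The number of genes called on day 40, 5 in all, was 2 without cow 1, 2 without cow 3 and 1 without cow 4. In these fits 7.02% to 8.91% of all probe sets were higher and 5.07% to 7.98% lower. With all cows the shares were 11.6% and 8.86%. On that day 2 of 3 adipocyte markers (4 listed), ADIPOQ and LEP, were higher in the 4× gland, while 11.6% of all probe sets were. Their list had mean signals of 4.21 to 4.49 and 4.26 to 4.67 in the 2× and 4× glands, near the background of the array. In addition 2 of 6 markers of antibody secreting cells and 1 of 5 myoepithelial markers were lower, against 8.86% of all probe sets. The part of these cells in the day 40 values was not tested.

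**Figure D5:**
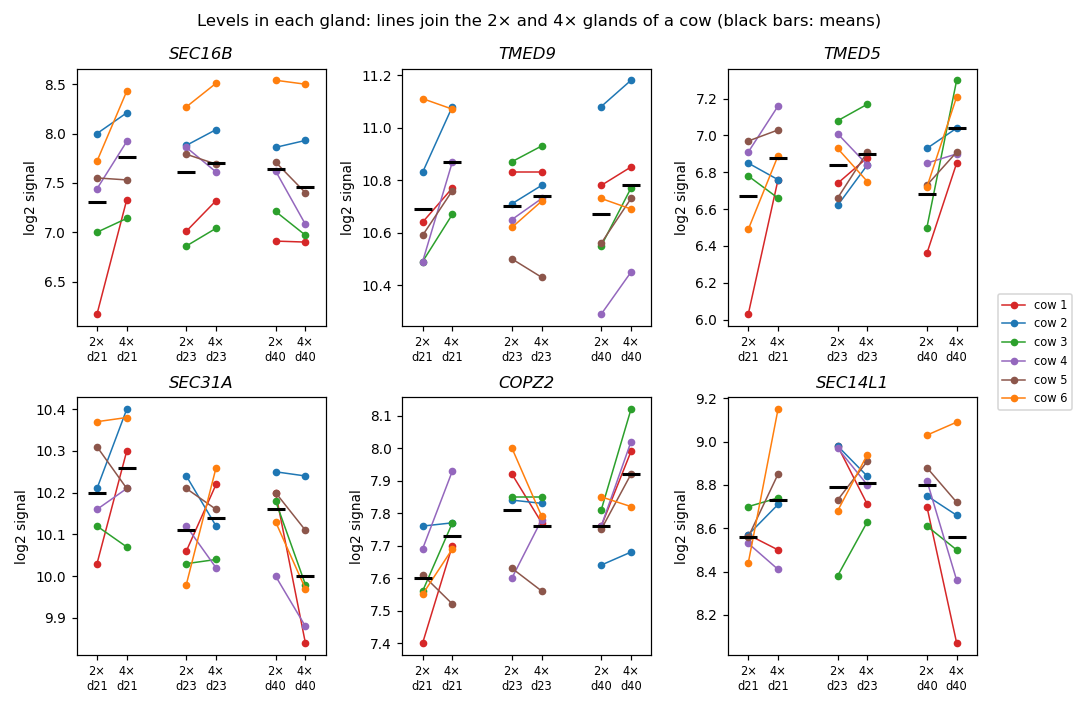
Log2 signal (y axis, a scale of its own for each gene) of SEC16B, TMED9, TMED5, SEC31A, COPZ2 and SEC14L1 in the 2× and 4× glands on days 21, 23 and 40 (x axis), with a line joining the glands of each cow and a black bar for the mean of the 6 cows. On day 40 all 6 lines go up for TMED5 and down for SEC31A.

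Within the 2× glands, which were milked alike throughout, the ER and coat genes had higher values on day 23 than on day 21 for 40 of 53 genes, with a median of 0.08. The median over all probe sets was 0.02. The mean over the 53 genes was 0.08 over the 6 cows and 0.03 without cow 1, with 0.37 in cow 1 and −0.17 in cow 6. Comparisons of days within the 2× glands share the 2× glands of day 21 with the differential expression of that day. Their SE used 1 spread for all 6 groups. The SD of the mean over the 53 genes was 0.19 in the 2× glands on day 21 and 0.06 to 0.12 in the other groups. Those SE can therefore understate the spread. Of the 53 genes 9 were higher and 1 was lower, against 7.50% and 8.65% of all probe sets. COPA went from a median of 10.81 to 10.93, a difference of 0.21 (SE 0.07, adjusted p = 0.184 from limma), higher in 5 of 6 cows. SSR3 went from 11.12 to 11.33 (0.48, SE 0.16), TMED2 from 11.73 to 11.82 (0.24, SE 0.09) and COPZ2 from 7.59 to 7.84 (0.21, SE 0.08), each higher in 5 cows. COPG1, the gamma subunit of the COPI coat, had 0.20 (SE 0.09), at or above 0 in 6 of 6 cows. SEC24B, near the background, was the gene that was lower, from a median of 4.40 to 4.05, with a difference of −0.41 (SE 0.13, adjusted p = 0.173). Without cow 1 the count was 1, COPA with 0.13, and without cow 3 it was 6. Of all probe sets 2.70% were higher and 3.31% lower without cow 1, and 4.18% and 5.00% without cow 3.

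From day 21 to day 40, both in rear glands, 7 genes were higher in the 2× glands and 0 lower, against 3.06% and 3.73% of all probe sets, with a median of 0.07. The median over all probe sets was −0.01. The mean over the 53 genes was 0.31 in cow 1 and 0.03 without that cow. SEC61A2, an isoform of the channel's pore forming subunit, went from a median of 7.51 to 7.66 with a difference of 0.23 (SE 0.09, adjusted p = 0.574 from limma), higher in 4 of 6 cows. SEC16B went from 7.50 to 7.67 (0.33, SE 0.13), TMED2 had 0.22 (SE 0.09) and COPA 0.15 (SE 0.07). SEC14L1 had 0.24 (SE 0.11), and PDIA5 and COPZ2 were also called. Without cow 1 SEC14L1 alone was called, with 0.26, and the count was 4 without cow 3, cow 5 or cow 6. Of all probe sets 1.74% were higher and 2.60% lower without cow 1. Without cows 3, 5 and 6 the shares were 2.76%, 2.83% and 2.89% higher and 3.40%, 3.47% and 2.50% lower.

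In the 4× glands, 15 of 53 genes had higher and 38 lower values on day 23 than on day 21, with a median of −0.05. None was higher and 3 were lower, against 1.82% and 1.98% of all probe sets. SEC62 went from a median of 11.13 to 10.75, a difference of −0.34 (SE 0.14), SRP9 from 9.14 to 8.89, with −0.38 (SE 0.16), and TMED10 from 11.52 to 11.33, with −0.18 (SE 0.08). All 3 were lower in 6 of 6 cows (adjusted p = 0.999 for each from limma), and the same 3 were called without cow 1. SEC31A had −0.12 (SE 0.07) and was not called, from a median of 10.26 to 10.14. The count was 0 without cow 2, 1 without cow 4 and 2 without cow 5. In the same order 1.08%, 1.66% and 1.32% of all probe sets were higher and 1.23%, 1.75% and 1.67% lower.

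From day 21 to day 40 in the 4× glands 6 genes were lower and 2 higher, against 5.24% and 3.44% of all probe sets, with a median of −0.04. SEC31A had the smallest p: its log2 signals were 10.07, 10.26 and 10.40 on day 21 and 9.84, 9.98 and 10.24 on day 40, and the difference was −0.26 (SE 0.07, adjusted p = 0.215 from limma), negative in 6 of 6 cows. SRP72 went from a median of 10.18 to 10.06, with −0.24 (SE 0.08), also negative in 6 of 6 cows. SEC31A and SRP72 were called with each cow left out in turn. SEC23IP had −0.25 (SE 0.11), SEC16B −0.30 (SE 0.13), SEC62 −0.29 (SE 0.14) and TMED10 −0.16 (SE 0.08). The higher genes were COPZ2, from a median of 7.73 to 7.95, with 0.20 (SE 0.08), and SEC22A, from 6.72 to 6.89, with 0.15 (SE 0.07). The count of 8 genes was 5 without cow 4 or cow 6 and 4 without cow 5. Without cows 4, 6 and 5 the shares of all probe sets were 2.95%, 2.81% and 2.51% higher and 4.78%, 3.55% and 3.78% lower. Without cow 1's day 21 pair 7 of the 8 were called, with 3.98% of all probe sets higher and 5.48% lower.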

How the data were processed

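Mammary biopsies of 6 cows, 1 from each side of the udder on 3 days, gave 36 arrays (Affymetrix GeneChip Bovine Genome Array, 1 biopsy each). The authors read probe signals with GeneChip Operating Software and made the deposited log2 values with the Robust Multichip Average in Bioconductor, which corrects background, normalizes across arrays and summarizes the probes of each probe set; versions are not given in the sources used here. The probe level signals were not analysed here. Of 24128 probe sets 112 controls were left out and 24016 were tested. All 53 genes matched a RefSeq symbol by their gene identifier.

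Groups and cows came from the labels. Glands of a cow deviated together from their group means in 18 of 18 pairs (correlations from 0.242 to 0.665), so the main fit was paired: R 4.3.3 and limma 3.58.1 (lmFit, then eBayes) were run on 18 within-cow differences, fitting 1 mean per day and 1 spread for all days. The differences of a cow on different days were treated as independent in that fit. Comparisons between days within a gland were fitted on the 36 arrays with 6 group means and cow as a fixed block. Benjamini-Hochberg adjustment covered all probe sets tested, and counts were made at an unadjusted p under 0.05. The study used this p for its reported genes, together with a filter on the size of the change. Its pathway analysis used a stricter p. No size filter was used here. The fit was tested on simulated data. The members, the lists of related genes and markers and the tests were chosen with earlier results of these data known. Lists were described by counts and medians, with no test.

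Levels were given for the 8 genes with the smallest p on day 21, the 4 with the smallest p in every other comparison and the gene with the highest mean of each role group, in the groups compared; of the related genes, for the 3 with the smallest p on day 21 in each direction. Other genes called were named for completeness. Alternatives were no replicate block, a random block, no moderation, each day fitted alone, arrays centred on their median, scaling to 5 reference genes, dim probe sets (mean under 5) left out, the mean of all probe sets of a gene and each cow left out. Leaving out the day 21 pair of cow 1 was chosen after its values were seen. The number of arrays limits the precision. Python 3.11.15 with numpy 2.4.6, pandas 2.3.3 and matplotlib 3.10.9 made the tables and plots.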

Additional observations from a re-analysis of the deposited data

Results flagged for a closer look

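In 13 of 91 groups of 6 cows the highest or the lowest cow stood apart from the others by more than Dixon's limit, and chance alone flags about 1 in 20 groups. In 9 of the 13 the cow was cow 1, on day 21. Its differential expression was 0.42 for the mean over the 53 genes, 1.72 for SSR3, 1.48 for SEC22B, 1.44 for SEC62, 1.36 for SRP14, 1.03 for SEC11C, 0.89 for TMED2, 0.88 for SPCS1 and 0.75 for SEC61A1. The 8 genes share the 2× gland of cow 1, so these flags are not independent of each other. Without cow 1's day 21 pair these genes had 0.15, 0.26, 0.15, 0.12, 0.14, 0.12, 0.11 and 0.16 in the same order. On day 23 cow 6 stood apart with 0.13 for the mean over the 53 genes, 0.55 for SRP9 and 0.40 for SEC23IP, and cow 4 with −0.09 for COPA.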

How the results depend on the processing

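No count of the 53 genes past an adjusted p of 0.05 differed from 0 in any setting, with limma or without its moderation, and no named value changed sign with its call. The counts at an unadjusted p under 0.05 did depend on the setting. With no replicate block for the cow the day 21 count of higher genes was 7 in place of 18, the day 23 count 0 in place of 1, and the change from day 21 to day 23 had 1 higher and 0 lower in place of 2 and 9; the counts within glands were 3 in place of 7 (2×, day 40), 1 in place of 3 (4×, day 23) and 3 in place of 8 (4×, day 40). With cow as a random replicate block the day 23 count was 0 and the change had 3 lower. With each day fitted alone day 21 had 5 higher and 0 lower and day 40 had 3 in place of 5. The change, taken within each cow in that setting, had 0 higher and 3 lower. Without moderation SEC11A was lost on day 21, leaving 0 lower. The shares of all probe sets moved with these settings too. On day 21 the share higher was 3.66% with no block, 6.21% with a random block and 5.32% with each day fitted alone. For the change the share lower was 1.97%, 3.73% and 3.63% in the same order.

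Scaling to reference genes shifted all probe sets. Their median moved from 0.02 to 0.1 on day 21, from −0.02 to −0.14 for the change and from 0.00 to −0.11 for day 23 in the 4× glands. Day 21 then had 24 higher and 0 lower, against 13.1% and 3.74% of all probe sets. Day 23 had 0 called and day 40 had 2. The change had 0 higher and 17 lower, against 2.28% and 9.76%, with a median over the 53 genes of −0.26. The counts within glands were 1 (2×, day 40) and 15 (4×, day 23), and 9.42% of all probe sets were lower in the latter. The mean over a gene's probe sets replaced values of the 53 genes alone, so the shares of all probe sets stayed near the main ones. With this mean the counts were 0 on day 23, 3 in the 2× and 4 in the 4× glands on day 40 against day 21. On day 40 it gave 6 in place of 5 called, of which SEC31A and SEC14L1 were shared; TMED5, COPZ2 and SEC14L2 were lost and COPZ1, PDIA4, SEC22A and SRP68 gained. With dim probe sets left out, which drops SEC24B, the change had 1 higher. Leaving out the day 21 pair of cow 1 gave 2 higher and 0 lower on day 21, 2 called on day 23, 0 higher and 2 lower for the change, and 4 and 1 called in the 2× glands on days 23 and 40. Of all probe sets 2.92% were then higher and 2.65% lower on day 21, and 1.79% and 1.64% on day 23. The shares were 2.95% and 2.77% for the change, and 3.23% and 3.75%, then 1.91% and 2.49%, in those 2× glands. With each cow left out in turn, the ranges were 2 to 18 higher and 0 to 2 lower on day 21, 0 to 2 called on day 23, 1 to 7 on day 40, 0 to 2 higher and 2 to 16 lower for the change, 1 to 14 and 1 to 8 in the 2× glands on days 23 and 40, and 0 to 4 and 4 to 8 in the 4× glands. The cause of these movements was not tested. Of the comparisons of a named value with its alternatives, 405 kept direction and side of the threshold, 110 lost the threshold and 6 gained it. Counts are not among these. COPG2 and SEC24B lay near the background, where differences are compressed.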

Other observations

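Related genes of the route that the naming rule does not take in were also read in other comparisons. For the change in differential expression from day 21 to day 23, 12 of the 57 measured genes were lower and 2 higher at the unadjusted threshold (background 5.15% and 5.65%). The lowest gene was SRPRA, with −0.60 (SE 0.18), negative in 5 of 6 cows. RPN2, KRTCAP2 and TMEM258, subunits of the oligosaccharyltransferase, had −0.27 (SE 0.09), −0.28 (SE 0.10) and −0.34 (SE 0.13), negative in 5, 6 and 6 cows. HSPA5, the ER chaperone also called BiP, had −0.31 (SE 0.14). The 2 higher genes were ARF5, 0.34 (SE 0.14), and MIA3, 0.34 (SE 0.10), the latter in 6 of 6 cows. On day 40 SAR1A, the GTPase that starts the COPII coat, had a differential expression of 0.34 (SE 0.13) and TRAM2, a membrane protein near the channel, 0.27 (SE 0.12), each positive in 6 of 6 cows. These genes were named after their values were seen.

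Partners of 1 complex differed in some cows more than in others, in comparisons chosen after the values were seen and given with no test. Differential expression of SEC11C minus that of SEC11A was 0.50 ± 0.76 (SD, n = 6 cows) on day 21 and 0.20 without cow 1. For SSR3 minus SSR2 it was 0.49 ± 0.75 and 0.19 without cow 1, and for the mean of SRP9 and SRP14 minus that of SRP19, SRP68 and SRP72 it was 0.29 ± 0.45 and 0.11 without cow 1.

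Probe sets of a gene did not always move together. Of the 22 genes with several probe sets, 10 had at least 1 with the opposite sign on day 21. A further probe set of SEC61A2 had −0.32 (SE 0.10) on day 40, where the one used had −0.07 (SE 0.09).

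Other glands also held many of the low values. On day 21 the 4× gland of cow 3 was the lowest of 6 for 34 of the 53 genes, on day 23 the 2× gland of cow 6 for 26, and on day 40 the 4× gland of cow 4 for 28.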
